A study of Rattus norvegicus with 17 samples.

Results

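The genes described here are 33 genes of apoptosis and of the p53 response, taken from a fixed list of names and measured in rat spinal cord neurons. A gene counted as measured where a probe set of the array carries its symbol alone, which holds for 30 of the 33, out of 14217 genes named that way. Of the other members, Bax and Cycs share their probe sets with further symbols and Pmaip1 has no named probe set, so these 3 were not analysed here. A probe set is a group of short probes on the array that reads 1 transcript. Of the 30 measured genes, 24 had at least 1 probe set bright enough to be tested. Bcl2, Bak1, Casp6, Casp8, Gadd45a and Fas lay under the limit of brightness at each of their probe sets.

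Each of the 17 arrays was hybridised with amplified RNA of 1000 neurons, which had been labelled by retrograde tracing and cut out with a laser from unfixed rat cord in sections of 10 µm. Regenerating neurons (n = 7) and non-regenerating neurons (n = 7) came from the same 7 axotomised rats, so that they can be set against each other within an animal. Traced neurons (n = 3), which were labelled but not axotomised, came from 3 other rats. The title of the traced sample MM15 alone carries the added remark that it is a high yield replicate. The strain, age and lesion are not given in the sources used here. With 1 array a sample, precision is set by how many arrays a group holds, and p-values measure the spread between these samples.

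Values are signal intensities on a linear scale. The trimmed mean was 200 on every array, but the median signal ran from 32.8 to 60.6 in regenerating, from 33.9 to 76.9 in non-regenerating and from 63.7 to 76.0 in traced samples. It was 32.8 to 39.0 on the 4 arrays of the 2 rats with MOON names and 45.2 to 76.9 on the 13 arrays of MM rats, and all traced rats are MM rats. The ratio of 3′ to 5′ Gapdh control signals, which grows as RNA or its copies get shorter, was 32.3 to 78.7 in regenerating, 10.0 to 150.0 in non-regenerating and 11.7 to 37.4 in traced samples. Non-regenerating MM17 and traced MM15 stood apart, since their correlation with the rest of the arrays had medians of 0.847 and 0.821. The 14 neuron markers had mean log2 levels of 10.1 to 10.6 in regenerating, 10.1 to 10.8 in non-regenerating and 10.3 to 10.9 in traced samples. The captures also held transcripts of neighbouring cells. The 20 microglia and macrophage markers averaged 7.77 to 8.57 in regenerating, 7.96 to 8.37 in non-regenerating and 7.25 to 7.49 in traced samples on that scale. Of the 16 of these markers bright enough to be tested, 12 were higher at an unadjusted p under 0.05 both in regenerating and in non-regenerating samples than in traced samples, and 5 in regenerating and 2 in non-regenerating samples passed the adjusted threshold. The 11 astrocyte markers averaged 9.89 to 10.5 in regenerating, 10.0 to 10.5 in non-regenerating and 9.72 to 9.83 in traced samples, with no overlap with the traced samples. Of these, 3 were higher than in traced samples at an unadjusted p under 0.05 in regenerating and 5 in non-regenerating samples, and Gfap passed in regenerating samples (1.33, limma adjusted p = 0.0260). Oligodendrocyte markers averaged 8.72 to 9.48, 8.88 to 9.31 and 9.31 to 9.35 and endothelial markers 8.06 to 9.02, 8.24 to 8.72 and 8.59 to 8.66 in regenerating, non-regenerating and traced samples. The part of these cells in the results below was not tested. In such captures fewer cells of a type and less RNA per cell cannot be told apart.

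In the mitochondrial pathway of cell death, BH3-only proteins sense stress and tilt the balance between survival proteins of the Bcl2 family and the proteins that open the outer mitochondrial membrane. Released cytochrome c then joins the scaffold Apaf1 to activate initiator caspases, while inhibitor of apoptosis proteins hold caspases back and are themselves countered by Diablo. The transcription factor p53 raises several of these genes, together with brakes on the cell cycle, after DNA damage. After axotomy, neurons with axons confined to the central nervous system are known to survive in part and often to shrink rather than die.

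No member passed the test in any comparison. The test was limma on log2(signal + 16), with a Benjamini-Hochberg adjusted p under 0.05 over all 18625 tested probe sets. Of the 31 tested probe sets of the 24 members, 0 were called between regenerating and non-regenerating neurons, where 0.0161% of all tested probe sets were called. Non-regenerating against traced neurons gave 0 calls, beside 0.043% of all, and regenerating against traced neurons gave 0, beside 0.215%. At an unadjusted p under 0.05, 2 of the 31 probe sets (6.45%) differed between regenerating and non-regenerating neurons, 1 higher and 1 lower, beside 7.08% of all tested probe sets (4.26% higher, 2.81% lower). Between non-regenerating and traced neurons there were 3 (9.68%), all lower, beside 10.3% (2.68% higher, 7.61% lower). Between regenerating and traced neurons there were 9 (29.0%), 2 higher and 7 lower, beside 23.6% (5.98% higher, 17.6% lower). These shares of probe sets lay near the background in the first 2 comparisons and somewhat above it in the last. With each of the 24 genes at its brightest probe set alone, the shares were 8.33%, 8.33% and 20.8% in the same order. The last of these lay below its background of 23.6%, so that excess rests on second probe sets of the same genes. Every value that follows is therefore a level or a difference with its error, and none is a called change.

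The size of the differences was bounded in part. With each gene at its brightest probe set, the 24 members differed between regenerating and non-regenerating neurons by log2 values between -0.41 (Casp2) and 0.42 (Bid), with a median of 0.13 against -0.00 over all tested probe sets, and 17 lay above 0, beside 49.8% of all. All 24 of their 95% confidence intervals lay within 1 unit of 0 on the log2(signal + 16) scale, which understates differences of dim genes. Non-regenerating against traced neurons gave differences between -1.004 and 0.42 with a median of 0.06, against -0.12 over all tested probe sets. Of these, 14 lay above 0, beside 38.8% of all, and 12 of the 24 intervals lay within 1 log2 unit. Regenerating against traced neurons gave differences between -1.10 and 0.75 with a median of 0.22, against -0.12. Of these, 14 lay above 0, beside 40.8% of all, and 13 of 24 intervals lay within that bound. Both of these comparisons use the same 3 traced arrays, and their values are given side by side.

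These medians rest on the brightest probe set of each gene and on single samples. Over all 31 tested probe sets of the members the medians were 0.06 between regenerating and non-regenerating, -0.01 between non-regenerating and traced and 0.03 between regenerating and traced neurons, and 64.5%, 48.4% and 51.6% of the probe sets lay above 0. With 1 rat left out the first median over 24 genes ran from 0.06 (without MM17) to 0.15. With 1 sample left out that of non-regenerating against traced neurons ran from -0.01 (without traced MM18) to 0.13 (without traced MM19), and that of regenerating against traced neurons from 0.07 (without traced MM18) to 0.22.

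**Figure D1:**
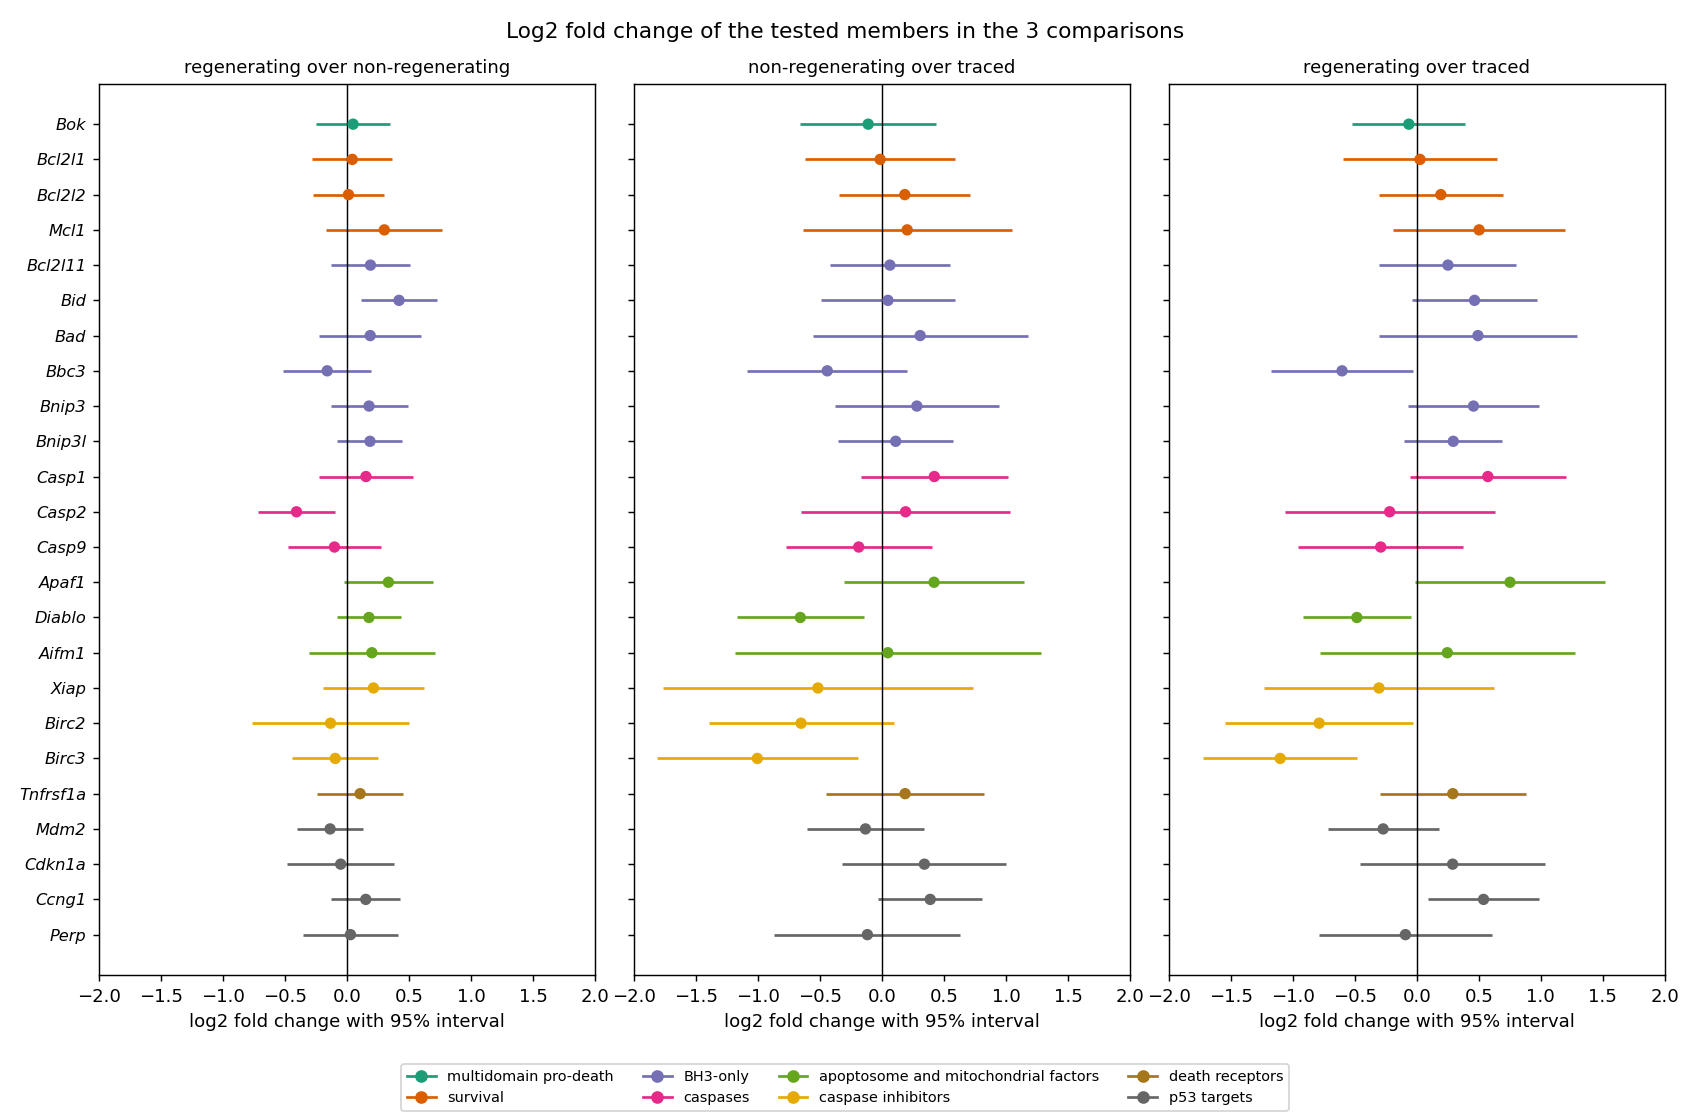
Log2 differences of the 24 tested members with 95% confidence intervals, 1 panel for each of the 3 comparisons, with members ordered by role. Intervals within animals are the narrowest, all within 1 log2 unit of 0, and no member passes the adjusted threshold in any panel.

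Among p53 targets 5 genes were measured and 4 tested, with Gadd45a too dim. Windows of 300 bases around the transcription start (250 before, 50 after) were available for 5 of these genes from RefSeq on the GRCr8 build. They were searched for the 10-base p53 consensus unit, which reads the same on both strands and which p53 binds as a close pair. A unit was found in 3 of the 5 windows, in the same 3 of 26 windows of all members (11.5%) and in 2671 of 33469 windows in the RefSeq table (7.98%). A pair with a spacer of at most 13 bases was found in 0 of the 26, against 20 windows in the whole table (0.0598%). Matches had to be exact, so a pair with a base off the consensus was not counted. A match describes letters and not a site in use. The 3 windows are shown because they hold the unit among the p53 targets, with the unit in capitals and everything else in lower case, each read 5′ to 3′ along the strand of its gene. The Cdkn1a window is chr20:7150682-7150981, plus strand, with the unit starting at -201 from the start. The 10 bases directly after this unit depart from the consensus at their first base alone. Ccng1 has chr10:25684827-25685126, minus strand, and the unit at -232, and Gadd45a has chr4:97486750-97487049, minus strand, and the unit at -48.
Cdkn1a: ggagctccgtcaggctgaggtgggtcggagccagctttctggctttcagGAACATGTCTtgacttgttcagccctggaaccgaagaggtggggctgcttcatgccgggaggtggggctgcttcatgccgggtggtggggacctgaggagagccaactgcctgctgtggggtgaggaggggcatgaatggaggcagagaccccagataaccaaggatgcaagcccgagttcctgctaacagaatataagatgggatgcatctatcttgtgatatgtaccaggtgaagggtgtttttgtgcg
Ccng1: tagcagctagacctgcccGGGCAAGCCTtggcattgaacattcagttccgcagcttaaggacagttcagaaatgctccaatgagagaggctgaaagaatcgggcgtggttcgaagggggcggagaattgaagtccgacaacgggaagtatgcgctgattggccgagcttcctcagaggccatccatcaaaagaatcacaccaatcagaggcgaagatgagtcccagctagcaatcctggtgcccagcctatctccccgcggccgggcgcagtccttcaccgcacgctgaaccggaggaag
Gadd45a: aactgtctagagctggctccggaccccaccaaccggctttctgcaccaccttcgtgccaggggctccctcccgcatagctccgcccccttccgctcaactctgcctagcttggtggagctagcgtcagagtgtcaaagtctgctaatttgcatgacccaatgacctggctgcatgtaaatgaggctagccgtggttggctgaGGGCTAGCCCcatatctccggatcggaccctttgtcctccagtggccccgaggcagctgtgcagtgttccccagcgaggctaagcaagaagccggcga

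Cyclin G1 (Ccng1), a p53 target that helps to switch the p53 response off, had the clearest level difference of this role. Its signal was 1172.0, 1372.8 and 1703.9 (lowest, median and highest) in regenerating neurons and 1027.5, 1300.5 and 1366.7 in non-regenerating neurons, against 775.3, 984.1 and 1114.4 in the 3 traced samples. Every regenerating sample lay above every traced sample, while non-regenerating samples overlapped with both other groups. Ccng1 was higher by 0.54 (SE 0.21, unadjusted p = 0.0214, limma adjusted p = 0.138) in regenerating than in traced neurons. The difference between non-regenerating and traced neurons was 0.39 (SE 0.20, limma adjusted p = 0.473), and that between regenerating and non-regenerating neurons 0.15 (SE 0.13), higher in 5 of 7 rats. In MM rats alone the difference of regenerating from traced neurons was 0.47, and in MOON rats 0.72. Over the alternatives run it lay between 0.17, with the 3′ to 5′ ratio as a covariate, and 0.93, with centred arrays, and without traced MM15 the value of non-regenerating neurons was 0.25.

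Cdkn1a, the cell cycle inhibitor p21 and the best known p53 target, had signals of 61.6, 145.2 and 201.1 in regenerating and 99.3, 110.1 and 216.7 in non-regenerating neurons, against 69.7, 92.3 and 152.8 in the traced samples. All 3 groups overlapped. The difference was 0.29 (SE 0.35) in regenerating and 0.34 (SE 0.31, limma adjusted p = 0.658) in non-regenerating neurons, each against traced, with intervals from -0.46 to 1.04 and from -0.32 to 1.004. The second value was 0.12 without traced MM18 and 0.61 without traced MM15. Mdm2, the ubiquitin ligase that degrades p53, lay between 267.7 and 466.4 on all 17 arrays at its brighter probe set. There it was lower by 0.14 (SE 0.13) in regenerating than in non-regenerating neurons, and at its dimmer tested one higher by 0.15 (SE 0.16). Perp, a membrane protein of the p53 response, ranged from 27.4 to 127.3 and differed by at most 0.12 in size in any comparison. Gadd45a, which acts in growth arrest and DNA repair, had mean signals of 35.8 ± 15.2 (SD, n = 7), 27.4 ± 10.1 (SD, n = 7) and 21.3 ± 8.70 (SD, n = 3) in regenerating, non-regenerating and traced neurons and was too dim to be tested.

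**Figure D2:**
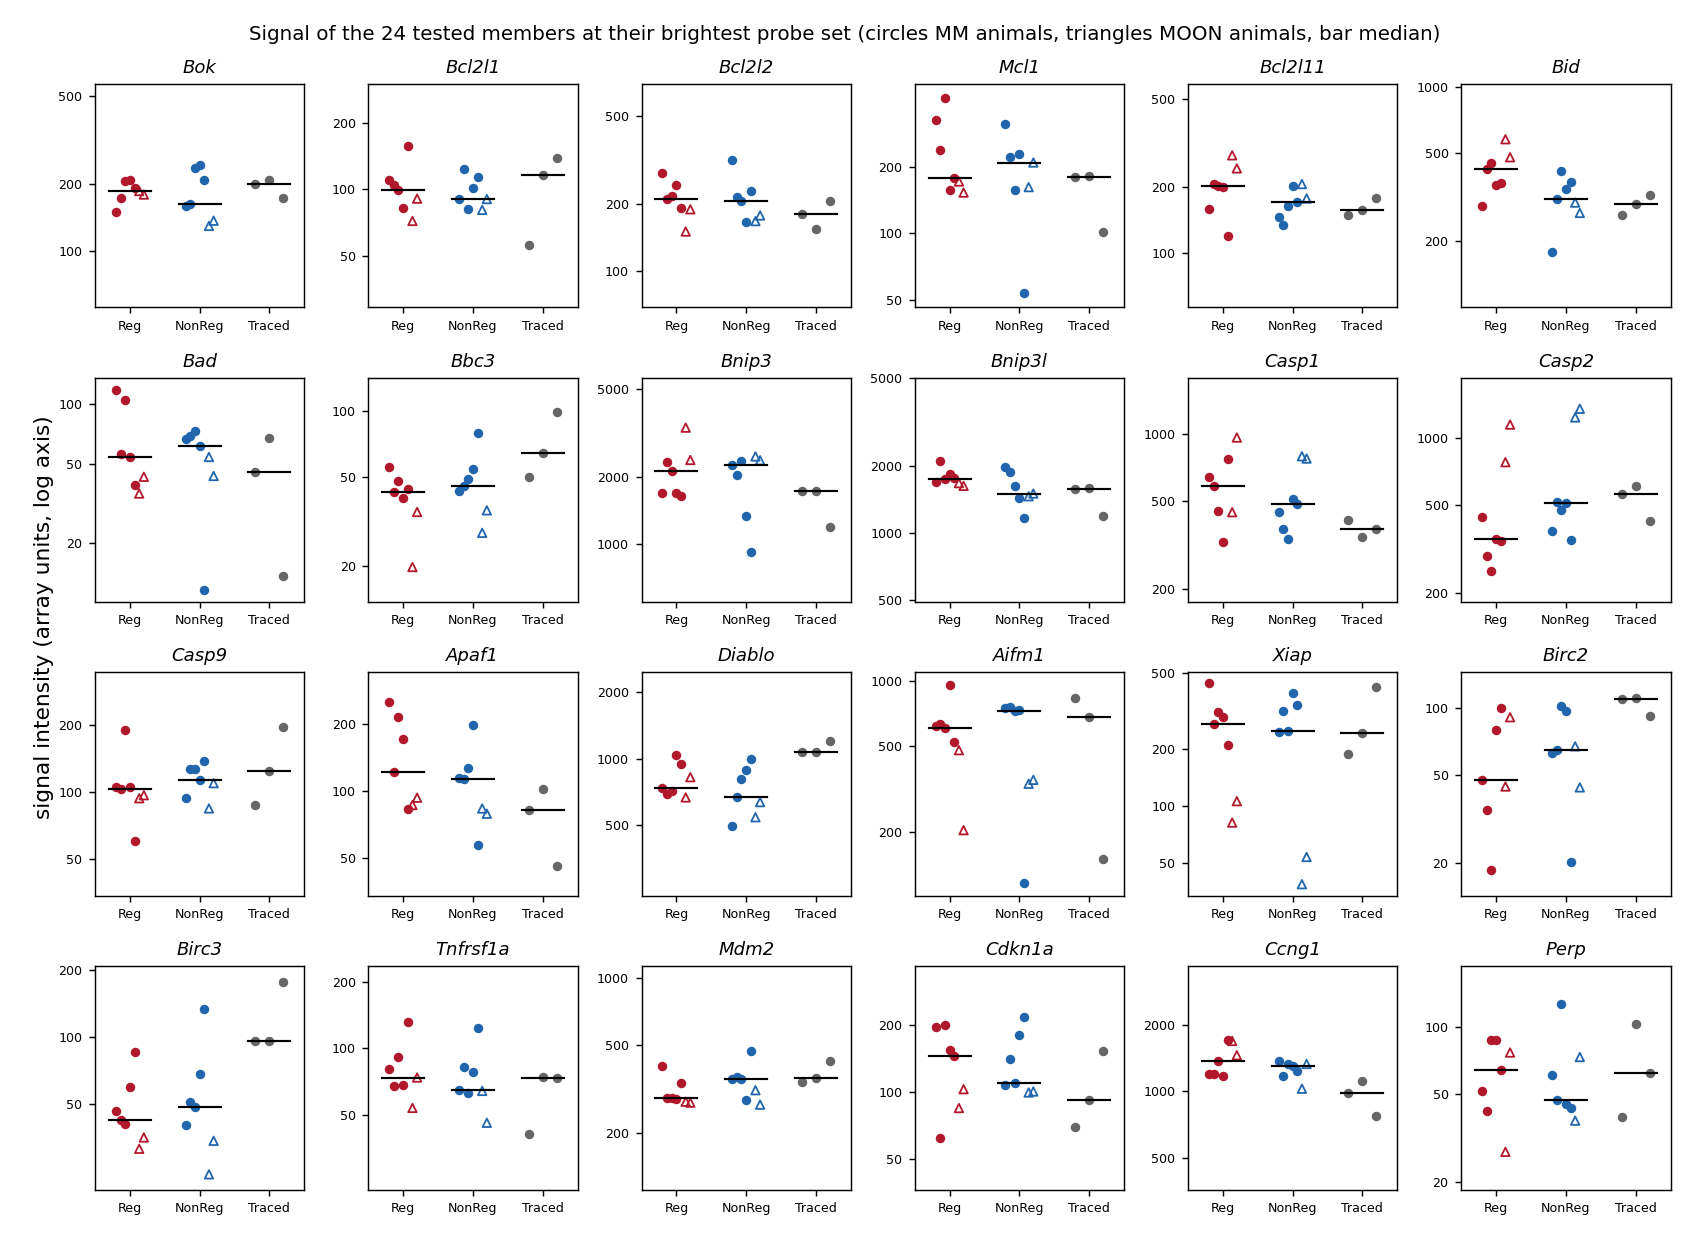
Signal of the 24 tested members at their brightest probe set on each array, on a log axis, with 1 circle (MM rats) or triangle (MOON rats) for each regenerating, non-regenerating and traced sample, and a bar at the median. Birc3 and Diablo are lower and Ccng1 and Bnip3l higher in all 7 regenerating samples than in the 3 traced samples, and the other 20 members overlap. The 4 that do not overlap are 16.7% of the 24 members, beside 11.7% of all tested probe sets.

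BH3-only proteins start the mitochondrial pathway. Of the 6 tested members of this role, 5 had differences above 0 in each comparison at their brightest probe set, and Bbc3 had one below 0 in each. Among the 5 is Bcl2l11, whose dimmer probe set lay below 0 in each comparison. It read -0.16 between regenerating and non-regenerating, -1.27 between non-regenerating and traced and -1.43 between regenerating and traced neurons. The medians over the 6 genes were 0.18, 0.09 and 0.38 in the same order. No member of the role passed.

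Bid, which links death receptors to mitochondria once it is cleaved, had signals of 288.9, 424.3 and 578.6 in regenerating and 179.5, 311.2 and 417.8 in non-regenerating neurons, against 264.0, 295.7 and 325.8 in traced samples. It was higher in the regenerating sample of 6 of 7 rats, and in the remaining rat, MM17, the samples differed by -0.02. The difference was 0.42 (SE 0.14, interval from 0.11 to 0.72, unadjusted p = 0.0101), and its limma adjusted p was 0.678. It was 0.86 in the 2 MOON rats and 0.24 in the 5 MM rats. Against traced neurons Bid differed by 0.47 (SE 0.23, limma adjusted p = 0.245) in regenerating and by 0.05 (SE 0.25) in non-regenerating neurons.

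Bbc3, also named Puma and a direct p53 target, had signals of 19.7, 43.0 and 55.5 in regenerating and 28.1, 45.8 and 79.7 in non-regenerating neurons, against 50.2, 64.1 and 98.3 in traced samples. The groups overlapped, with the highest regenerating sample above the lowest traced one. Bbc3 was lower by 0.60 (SE 0.27, unadjusted p = 0.0414, limma adjusted p = 0.191) in regenerating and by 0.44 (SE 0.30, limma adjusted p = 0.552) in non-regenerating neurons than in traced neurons. With the 3′ to 5′ ratio as a covariate the value of regenerating neurons was -0.01. Without traced MM15 the values were -0.38 in regenerating and -0.22 in non-regenerating neurons, and with centred arrays -0.21 and -0.08. Bbc3 is among the dimmest of 5 equal bins of tested probe sets, where the median over all probe sets was -0.46 and -0.41 in these comparisons.

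Bcl2l11, or Bim, known to act in neurons that lose growth factor support, had signals of 120.2, 201.2 and 277.3 in regenerating and 134.2, 170.5 and 205.7 in non-regenerating neurons, against 149.4, 157.5 and 178.1 in traced samples. At this brighter probe set it was higher in 5 of 7 regenerating samples within rats, by 0.19 (SE 0.15, limma adjusted p = 0.772), and by 0.29 without MM17. Its dimmer probe set read -0.16 (SE 0.17) and was lower in 5 of 7 rats. Bnip3 and Bnip3l, mitochondrial outer membrane proteins that mark mitochondria for removal by autophagy, were among the brightest members. Bnip3 had signals of 1646.2, 2118.6 and 3337.7 in regenerating and 918.7, 2255.7 and 2473.7 in non-regenerating neurons, against 1191.9, 1732.5 and 1736.3 in traced samples, and the groups overlapped.

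Bnip3l had signals of 1629.2, 1743.7 and 2100.1 in regenerating and 1167.9, 1504.5 and 1972.9 in non-regenerating neurons, against 1194.0, 1575.4 and 1593.7 in traced samples. All 7 regenerating samples lay above the traced samples, by a narrow margin. The difference of Bnip3l was 0.30 (SE 0.19, limma adjusted p = 0.36) from traced and 0.18 (SE 0.12, limma adjusted p = 0.74) from non-regenerating neurons, the second higher in 6 of 7 rats and 0.12 without MM17. Bad, a BH3-only protein silenced by survival kinases, was dim and scattered, from 11.7 to 117.8, with its lowest signals on the arrays of non-regenerating MM17 (11.7) and traced MM15 (13.7).

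Of the survival proteins of the Bcl2 family, 3 were tested. Mcl1, a survival protein with a short life, had signals of 152.8, 178.6 and 407.1 in regenerating and 53.9, 208.8 and 310.0 in non-regenerating neurons, against 101.6, 178.8 and 182.3 in traced samples. The groups overlapped throughout. The difference between regenerating and non-regenerating neurons was 0.30 (SE 0.22, limma adjusted p = 0.761), and 2 rats carried it, MM14 with 1.29 and MM17 with 1.48, while the median over the 7 rats was 0.08. Without MM17 the difference was 0.10 and without MM14 it was 0.14. Against traced neurons Mcl1 differed by 0.50 (SE 0.32, interval from -0.19 to 1.199) in regenerating and by 0.20 (SE 0.39) in non-regenerating neurons.

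Bcl2l1, which encodes Bcl-xL, lay between 56.1 and 156.7 on all arrays, and Bcl2l2, which encodes Bcl-w, between 150.8 and 318.5. Their differences between regenerating and non-regenerating neurons were 0.04 (interval from -0.28 to 0.36) and 0.01 (from -0.28 to 0.30). Those of regenerating from traced neurons were 0.03 (from -0.60 to 0.65) and 0.20 (from -0.31 to 0.70). Bcl2 itself read at most 31.7 on any array and was not tested. Among the proteins that open the membrane, Bok lay between 129.4 and 243.3 at its brighter probe set and differed by 0.05 (SE 0.14) between regenerating and non-regenerating neurons. Bak1 was dim, with mean signals of 27.0 ± 6.40 (SD, n = 7), 31.1 ± 19.1 (SD, n = 7) and 59.8 ± 17.3 (SD, n = 3) in regenerating, non-regenerating and traced neurons, and was not tested.

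Caspase inhibitors were the role with the lowest medians against traced neurons. Birc2 and Birc3 encode cellular inhibitors of apoptosis, ubiquitin ligases that act at TNF receptors, and Xiap blocks caspases directly. All 3 had differences below 0 against traced neurons, with a median of -0.79 in regenerating and -0.65 in non-regenerating neurons. Between regenerating and non-regenerating neurons the median was -0.10.

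Birc3 had signals of 31.3, 42.4 and 85.2 in regenerating and 24, 48.5 and 133.1 in non-regenerating neurons, against 95.6, 96.3 and 178.0 in traced samples. All 7 regenerating samples lay below the traced samples, while 1 non-regenerating sample, MM17, reached above the lower 2 of them. Among the members' 31 probe sets, 7 had regenerating and traced samples that did not overlap, beside 11.7% of all tested probe sets, and 1 had this for non-regenerating and traced samples, beside 2.56%. Birc3 was lower by 1.10 (SE 0.29, unadjusted p = 0.0019) in regenerating than in traced neurons, and its limma adjusted p of 0.0684 lay just over the threshold. The values were -0.96 in MM rats and -1.45 in MOON rats. With regenerating MM17 left out the difference was -1.22 and the limma adjusted p 0.0280, where the alternatives run gave 0.0132 to 0.762. In non-regenerating neurons Birc3 was lower than in traced neurons by 1.004 (SE 0.38, limma adjusted p = 0.472).

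Birc2 had signals of 18.6, 47.2 and 100.3 in regenerating and 20.2, 64.8 and 101.8 in non-regenerating neurons, against 92.3, 109.5 and 111.1 in traced samples. The lowest traced sample lay within the range of both other groups. It was lower by 0.79 (SE 0.35, limma adjusted p = 0.195) in regenerating and by 0.65 (SE 0.35, limma adjusted p = 0.478) in non-regenerating neurons than in traced neurons. Both Birc genes lie in the next to dimmest of the 5 bins of brightness, where the median over all probe sets was -0.32 in each of these comparisons.

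Xiap split by the names of the rats. Its signal was 81.5 and 105.6 in the regenerating and 38.6 and 53.7 in the non-regenerating samples of MOON rats, against 208.2 to 440.3 and 242.9 to 391.7 in those of MM rats, and 187.5, 242.8 and 423.5 in traced samples. The MOON samples lay below every MM sample. Set against traced neurons, Xiap differed by 0.13 in the regenerating and 0.16 in the non-regenerating samples of MM rats, and by -1.39 and -2.21 in those of MOON rats. This split was noticed in the data and was not tested. It holds among the axotomised samples alone. With no traced MOON rat, the name and axotomy cannot be told apart in the values of MOON rats against traced neurons.

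Diablo, the mitochondrial protein that lifts the inhibition of caspases by these inhibitors, was the member with the smallest p at its brightest probe set between non-regenerating and traced neurons. It had signals of 668.0, 738.5 and 1038.8 in regenerating and 495.6, 672.5 and 991.4 in non-regenerating neurons, against 1074.6, 1076.3 and 1195.3 in traced samples. Every sample of both axotomised groups lay below every traced sample. The difference was -0.48 (SE 0.20, limma adjusted p = 0.169) in regenerating and -0.66 (SE 0.24, unadjusted p = 0.0152, limma adjusted p = 0.472) in non-regenerating neurons. In MM rats these values were -0.44 and -0.56. Within rats Diablo was higher in 5 of 7 regenerating samples, by 0.18 (SE 0.12), and by 0.11 without MM11. With each array centred on its median, the difference of regenerating from traced neurons was -0.09.

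Apaf1, the scaffold of the apoptosome, had signals of 82.6, 121.8 and 251.5 in regenerating and 56.7, 113.6 and 197.6 in non-regenerating neurons, against 46.0, 81.6 and 102.1 in traced samples. The groups overlapped. At this brighter probe set Apaf1 was higher in 6 of 7 regenerating samples within rats, by 0.33 (SE 0.17, limma adjusted p = 0.697). The dimmer one read -0.004 (SE 0.19) within rats. At the brighter one Apaf1 was higher by 0.75 (SE 0.36, limma adjusted p = 0.219) in regenerating than in traced neurons. In non-regenerating neurons it was higher than in traced neurons by 0.42 (SE 0.34, limma adjusted p = 0.622). Without traced MM15 these values against traced were 0.49 in regenerating and 0.16 in non-regenerating neurons, and the value within rats was 0.21 without MM11. Aifm1, a mitochondrial oxidoreductase that can move to the nucleus and act in death without caspases, had its lowest signals on the 2 arrays that stood apart, 115.5 in non-regenerating MM17 and 149.3 in traced MM15. On the other 15 arrays it lay between 202.9 and 963.3.

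**Figure D3:**
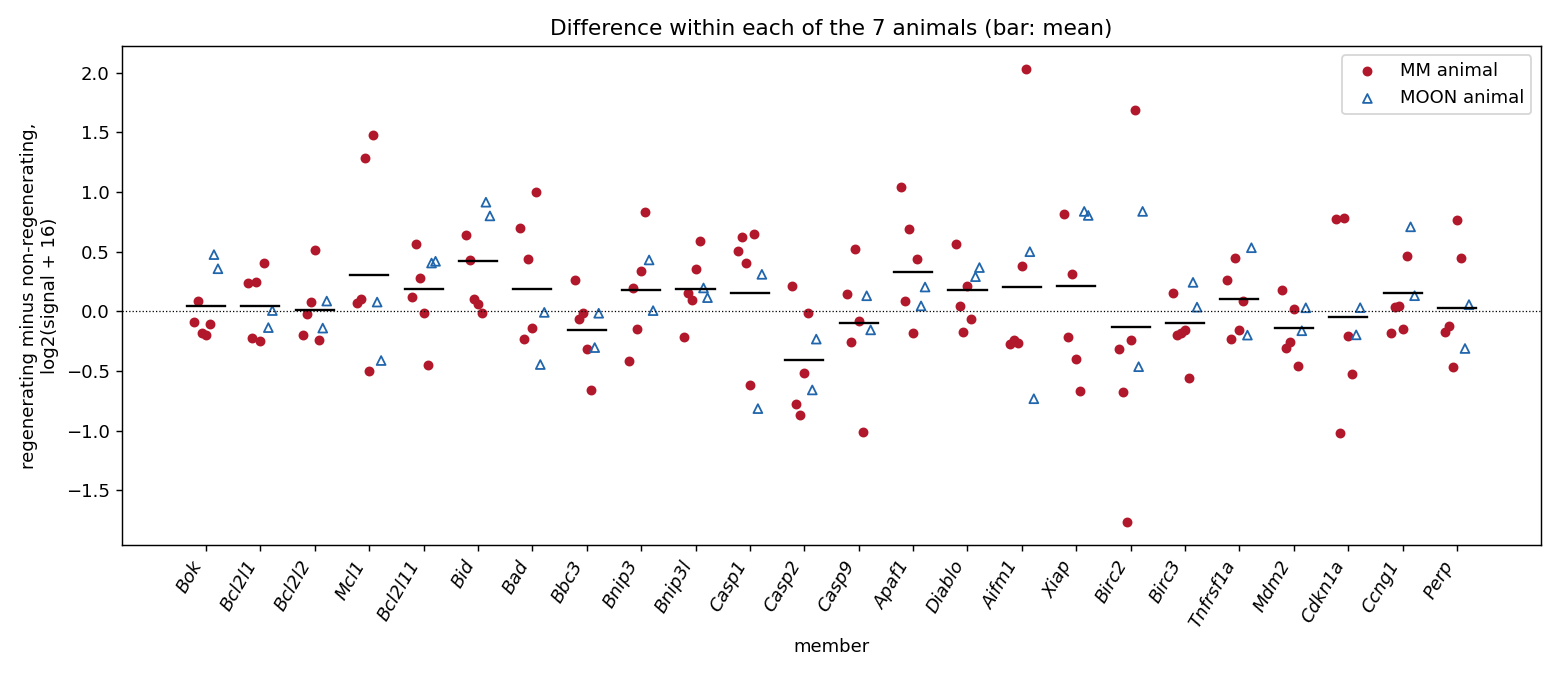
Log2 difference of the regenerating from the non-regenerating sample in each of the 7 rats, with 1 circle (MM rats) or triangle (MOON rats) for each rat and a bar at the mean. Bid lies above 0 in 6 of 7 rats and Casp2 below 0 in 6 of 7, and no member lies on 1 side of 0 in all rats.

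Caspases carry out and amplify the process. Casp2, an initiator caspase tied to DNA damage, had signals of 251.7, 350.4 and 1147.7 in regenerating and 345.8, 508.3 and 1352.4 in non-regenerating neurons, against 421.6, 559.4 and 606.1 in traced samples. It was lower in the regenerating sample of 6 of 7 rats. The difference was -0.41 (SE 0.14, interval from -0.71 to -0.10, unadjusted p = 0.0122, limma adjusted p = 0.678), with -0.39 in MM and -0.45 in MOON rats. None of the 31 probe sets of members had the same direction in all 7 rats, beside 2.09% of all tested probe sets.

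At its brighter probe set the level of Casp2 also split by the names of the rats, in the opposite direction to Xiap. MOON rats had 776.5 and 1147.7 in regenerating and 1236.2 and 1352.4 in non-regenerating neurons, against 251.7 to 441.5 and 345.8 to 515.8 in MM rats. The values against traced neurons had opposite signs in these rats. They were 0.83 in MOON and -0.64 in MM rats for regenerating neurons, and 1.28 in MOON and -0.24 in MM rats for non-regenerating neurons.

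Casp1, the inflammatory caspase that matures interleukins, had signals of 325.9, 579.9 and 962.9 in regenerating and 336.1, 485.0 and 792.7 in non-regenerating neurons, against 342.7, 370.5 and 410.3 in traced samples. The groups overlapped, and it was higher by 0.57 (SE 0.29, limma adjusted p = 0.254) in regenerating and by 0.42 (SE 0.28, limma adjusted p = 0.54) in non-regenerating than in traced neurons. The value of non-regenerating neurons was 1.04 in MOON and 0.18 in MM rats, and that of regenerating neurons 0.78 and 0.49. The microglia and macrophage markers given above were also higher in both groups, with medians of 1.29 and 1.08, and their part in the value of Casp1 was not tested. Casp9, the initiator caspase of the apoptosome, lay between 60 and 197.2 and was lower by 0.29 (SE 0.31) in regenerating than in traced neurons. Casp6 and Casp8, an executioner and the initiator at death receptors, read at most 44.4 and 49.9 and were not tested.

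Among death receptors, Tnfrsf1a, the first receptor of TNF, lay between 41.1 and 131.4 and differed by 0.10 (SE 0.16) between regenerating and non-regenerating neurons. It was higher by 0.29 (SE 0.28) in regenerating and by 0.19 (SE 0.30) in non-regenerating neurons than in traced neurons. Fas, the receptor of Fas ligand, was dim at all 3 of its probe sets, with 64.7 as its highest reading.

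Several members had a second tested probe set, and these did not always point the same way. Of the 7 genes with 2, the signs were opposite for 4 in each comparison, and the dimmer probe set had the lower value in 4 of 7 between regenerating and non-regenerating neurons and in 5 of 7 in both comparisons with traced neurons. Between regenerating and non-regenerating neurons the 4 with opposite signs were Apaf1, Bcl2l11, Mdm2 and Bok, the last with 0.05 and -0.20. Bcl2l11 differed by 0.25 (SE 0.26) at its brighter and by -1.43 (SE 0.36, limma adjusted p = 0.0684) at its dimmer probe set between regenerating and traced neurons. The dimmer one had signals of 29.1, 44.9 and 145.4 in regenerating and 25.0, 45.9 and 163.1 in non-regenerating neurons, against 142.8, 171.8 and 193.2 in traced samples, so a single regenerating sample, that of MM17, reached the traced range.

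Apaf1 read 0.75 and -0.66 at its 2 probe sets in the same comparison, and Casp2 read -0.22 and -0.96, the second with a limma adjusted p of 0.0684. Mcl1 read 0.50 and -0.19, Bok -0.06 and -0.69, and Mdm2 -0.27 and 0.12. Bnip3l alone of the 7 read above 0 at both, with 0.30 and 0.56. For the first 6 of these genes a statement about the gene depends on which probe set stands for it, and whether the probe sets read different transcripts was not tested.

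Differences against traced neurons also ran with brightness over the whole table. In 5 equal bins of the tested probe sets from dim to bright, the median difference of regenerating from traced neurons was -0.46, -0.32, -0.12, 0.06 and 0.08, and that of non-regenerating from traced neurons -0.41, -0.32, -0.16, 0.00 and 0.11. Between regenerating and non-regenerating neurons it stayed between -0.05 and 0.05. The members' probe sets had medians of -0.24, -0.68, 0.25, 0.20 and 0.46 in these bins between regenerating and traced neurons, over 4, 8, 7, 7 and 5 probe sets. Bright Ccng1 and Bnip3l were thus on the side of the bright probe sets, and dim Birc2, Birc3 and Bbc3 on that of the dim ones. Other members went the other way. Diablo, in the brightest bin, had values below 0. Bad, in the dimmest bin, and Tnfrsf1a, in the next, read 0.49 and 0.29 between regenerating and traced neurons. The part of brightness in the members' values was not tested.

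**Figure D4:**
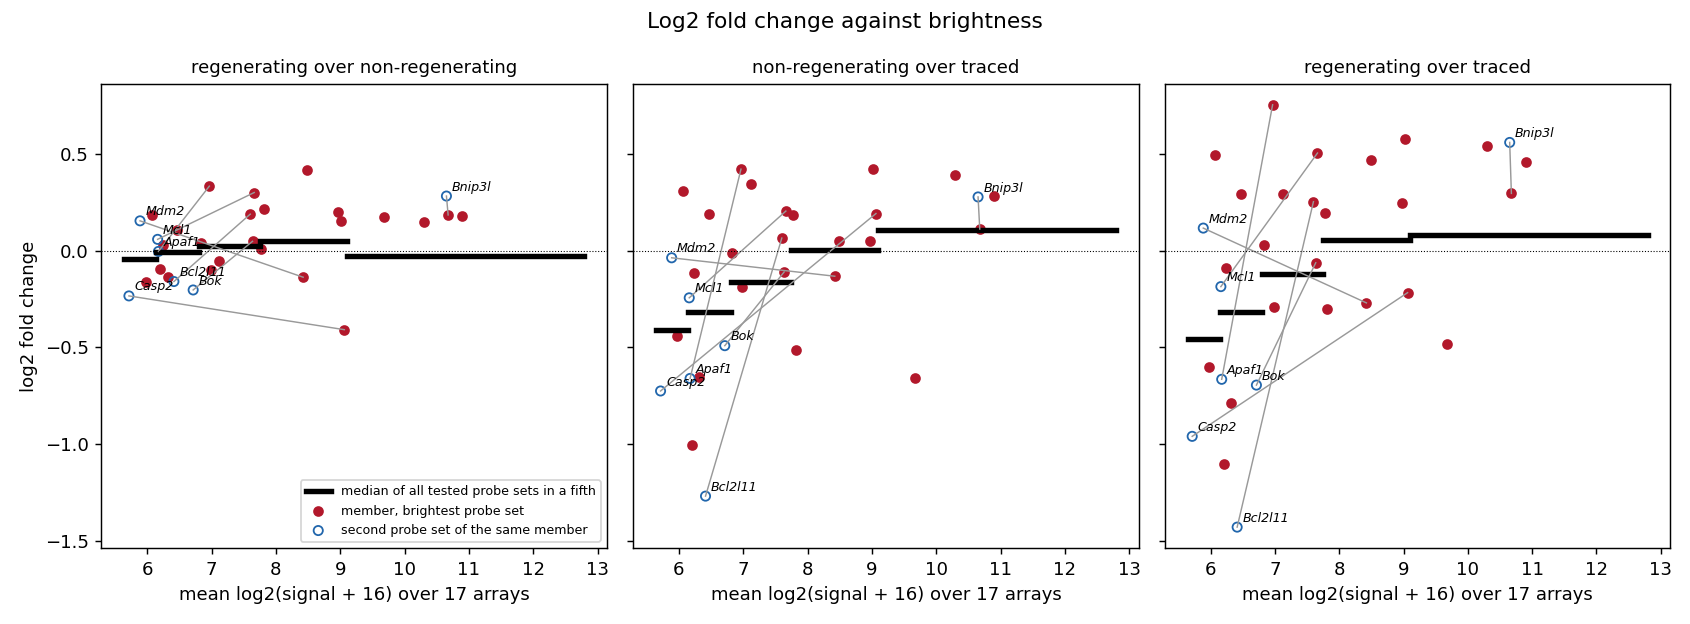
Log2 difference against mean log2(signal + 16) of the members' 31 tested probe sets, 1 panel for each comparison. Bars give the medians of all tested probe sets in the 5 bins of brightness. The medians climb from -0.46 to 0.08 between regenerating and traced neurons and stay within 0.05 of 0 between regenerating and non-regenerating neurons.

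Other genes of these pathways were counted from lists of 36 further p53 pathway genes, of which 18 were tested, and 49 further apoptosis genes, of which 31 were tested. None passed the adjusted threshold in any comparison. At an unadjusted p under 0.05, 3 of the 18 p53 pathway genes and 2 of the 31 apoptosis genes were higher and 0 lower between regenerating and non-regenerating neurons, beside 4.26% higher and 2.81% lower of all tested probe sets. Between non-regenerating and traced neurons 0 p53 pathway genes were higher and 1 lower, and 4 apoptosis genes higher and 0 lower, beside 2.68% and 7.61%. Between regenerating and traced neurons 0 p53 pathway genes were higher and 1 lower, and 7 apoptosis genes higher and 5 lower, beside 5.98% and 17.6%.

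Bag3, a co-chaperone that binds Bcl2 and serves selective autophagy, was higher in the regenerating sample of all 7 rats, where 2.09% of all tested probe sets had 1 direction in all rats. It had signals of 448.6, 744.0 and 1369.9 in regenerating and 261.9, 534.6 and 624.8 in non-regenerating neurons, against 339.7, 512.5 and 721.7 in traced samples. The difference was 0.63 (SE 0.15, limma adjusted p = 0.523), although the ranges of the groups overlapped. Rprm, a p53 target that halts the cell cycle, differed by 0.67 (SE 0.29), Dapk3, a death-associated kinase, by 0.44 (SE 0.20), and Ddb2, a DNA damage sensor, by 0.40 (SE 0.18) in the same comparison.

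Tnf, the ligand of Tnfrsf1a, had signals of 49.1, 73.5 and 123.1 in regenerating and 40.5, 68.6 and 178.4 in non-regenerating neurons, against 31.3, 32.5 and 37.2 in traced samples, with no overlap of either group with traced neurons. It was higher by 0.88 (SE 0.27, limma adjusted p = 0.0801) in regenerating and by 0.97 (SE 0.39, limma adjusted p = 0.472) in non-regenerating neurons. Bcl2a1, a survival protein known from blood cells, was also apart from traced neurons in both groups, by 0.74 (SE 0.23, limma adjusted p = 0.0865) and 0.67 (SE 0.27, limma adjusted p = 0.472). Its signal was 94.5 to 150.8 in regenerating and 77.9 to 154.7 in non-regenerating neurons, against 59.9 to 77.7 in traced samples. Of the 31 tested apoptosis genes of the list, 6 (19.4%) had regenerating samples apart from traced ones, beside 11.7% of all tested probe sets. For non-regenerating samples there were 2 (6.45%), beside 2.56%. The traced readings of Tnf lay around the limit of brightness, a signal of 34.0. Another probe set of Tnf was too dim to be tested. Its median signals were 2.5 in regenerating, 3.5 in non-regenerating and 7.1 in traced samples, so they were not higher after axotomy.

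Faslg, the ligand of Fas, was lower by 0.78 (SE 0.26, limma adjusted p = 0.0968) in regenerating than in traced neurons, and Ripk1, a kinase at TNF receptors, was higher by 0.90 (SE 0.30, limma adjusted p = 0.101). Between non-regenerating and traced neurons Casp4, an inflammatory caspase, differed by 1.02 (SE 0.36, limma adjusted p = 0.472), and Ppm1d, the phosphatase that shuts off p53 signalling, by -0.82 (SE 0.31, limma adjusted p = 0.472). Tnf, Bcl2a1 and Casp4 are also known from microglia and macrophages, whose markers were higher in the same comparisons, and the part of these cells in the values was not tested.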

How the data were processed

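Transcript levels were read on Affymetrix rat arrays, 1 for each of 17 samples. Per the labels' protocols, RNA went through repeated rounds of amplification before biotin labelling. The authors deposited signal intensity per probe set, made with GCOS (Affymetrix software) per the submitters' processing notes, with version and settings not given in the sources used here. The values were used as deposited, since the mean without the lowest and highest 2% was the same on every array. An offset of 16 was added before log2, so differences of dim genes are understated. Of 31099 probe sets, 57 controls and 12417 with a mean log2 under the 40th percentile (a signal of 34.0) were left out, and 18625 were tested. Gene symbols came from the platform annotation, and 13224 tested probe sets had 1 symbol, 300 several and 5101 none.

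Groups were taken from the sample titles. limma 3.58.1 in R 4.3.3 (lmFit, eBayes with trend) compared regenerating with non-regenerating samples with the rat as a block, and each of them with traced samples between rats, with only the groups compared in a fit. The pairing comes from the animal names in the titles, and deviations from the group means correlated within rats with r = 0.345 to 0.709. The highest values were those of MOON265 (0.670) and MOON266 (0.709), and the group means were taken over MM and MOON rats together. Correlations between different rats were not computed, so these values do not test the pairing. Benjamini-Hochberg adjustment ran over all tested probe sets. A gene stood at its brightest tested probe set. The lowest, median and highest signals were given for the 8 members with the smallest p in each comparison. For second probe sets of members, differences were given in part and signals for Bcl2l11 alone. Other pathway genes were named where they were among the 4 with the smallest p, with signals for Bag3, Tnf and Bcl2a1 alone. The members, lists and rules were chosen with earlier results of these data known. Alternatives covered offset, filter, normalization, trend, array weights, 3′ bias, the block, name prefixes, 1 fit over all samples, the probe set that stands for a gene, and leaving out samples. The scripts were tested on simulated data. The number of arrays limits the precision. Promoter windows came from RefSeq (GRCr8), and 7 members had none. Python 3.11.15 with pandas 2.3.3, numpy 2.4.6 and matplotlib 3.10.9 searched the windows and drew the figures.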

Additional observations from a re-analysis of the deposited data

Results flagged for a closer look

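Among 28 groups of values (the 14 members named by the rule, in regenerating and in non-regenerating neurons), 1 held a sample far from the others, where chance gives about 1 in 20. Mcl1 read 53.9 in non-regenerating MM17, against 157.4 in the next lowest and 310.0 in the highest non-regenerating sample. The array of non-regenerating MM17 stood apart over all probe sets, with a median correlation of 0.847 with the other arrays, and its part in this value was not tested.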

How the results depend on the processing

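No member passed between regenerating and non-regenerating neurons under any alternative run. Against traced neurons members passed under 3 kinds of setting. Array weights gave 4 member probe sets in non-regenerating neurons (Bcl2l11, Birc3, Casp2 and Diablo, all lower, with Birc3 at a limma adjusted p of 0.0217 and Diablo at 0.0194, the lowest over their alternatives, where the highest was 0.989) and 6 in regenerating neurons (Bcl2l11, Birc2, Birc3, Bok and Casp2 lower, Bnip3l higher). An offset of 64 gave 3 in regenerating neurons (Bcl2l11, Birc3 and Casp2), and so did leaving out regenerating MM17, with 0 to 3 over all samples left out in turn. At Bcl2l11, Casp2, Bok and Bnip3l each of these calls was made at the dimmer of 2 probe sets. With the probe set kept, no named member changed sign under any alternative run. With the tested probe sets of a gene averaged, Apaf1 between non-regenerating and traced neurons had the opposite sign (-0.12, against 0.42), and the value of Bcl2l11 between regenerating and non-regenerating neurons was 0.01. Over all probe sets, the count between regenerating and non-regenerating neurons (3) was 0 with offset 1, without a filter, with quantile normalization and without the arrays of non-regenerating MM17 and traced MM15, 1 with the 3′ to 5′ covariate, with MM rats alone and with 1 fit over all samples, and 0 to 3 with each rat left out. Without the replicate block it was 0, with 217 at an unadjusted p under 0.05. For non-regenerating against traced neurons (8) it was 3 with offset 64, with the covariate and with MM rats alone, 17 with quantile normalization, 23 with 1 fit, 2440 with array weights and 2 (without traced MM18) to 37 (without non-regenerating MM17) with samples left out. For regenerating against traced neurons (40) it was 871 with offset 64, 20 with dim probe sets removed up to the 70th percentile, 209 with quantile normalization, 329 with centred arrays, 3131 with array weights, 1 with the covariate and without the 2 arrays, 70 with MM rats alone, 202 with the name prefix as a term, and 1 (without traced MM15) to 1504 (without regenerating MM17) with samples left out. Centring the arrays put the median of all probe sets at 0.24 and 0.26 and that of the 24 members at 0.42 and 0.61 in non-regenerating and regenerating neurons against traced. With all tested probe sets of a gene averaged, the members' medians were -0.05 and 0.04. The causes were not tested. Members near the limit of brightness are the least certain, and 3 traced samples leave intervals of about 0.6 log2 units to either side.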
